A study of Mus musculus with 6 samples.

Results

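The complement group comprised 9 genes that encode the chains of C1q, the components C3, C4b and factor B, the receptors for C3a and C5a, and C1 inhibitor. They were chosen by name, and all 9 were found among the 24340 genes of the table. RNA was measured in primary microglia, the macrophages of the brain, cultured from the brains of newborn C57BL/6 mice under 3 days old. Cells received 10 uM C13, a small molecule that the submitters call a MOK inhibitor after the kinase MOK, or the solvent DMSO as vehicle for 1 h. They then received 1 ug/ml lipopolysaccharide (LPS), a component of bacterial membranes, for 5 h. There were 3 libraries of vehicle with LPS and 3 of C13 with LPS. All 6 libraries had LPS, so the values compare C13 with vehicle in LPS-exposed cells and do not show what LPS did.

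Complement is a chain of plasma and tissue proteins that tags targets for uptake and calls in leukocytes. C1q binds a target and starts the classical pathway through C1r, C1s, C4 and C2. The classical, lectin and alternative pathways meet at C3, and factor B forms with C3b the enzyme that amplifies C3 cleavage. The fragments C3a and C5a act on receptors of myeloid cells, and C1 inhibitor, the product of Serping1, blocks C1r and C1s. In the brain microglia are the main source of C1q, and complement takes part in the removal of synapses during development and disease.

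With C13, Cfb was 24.9% lower and C3 12.1% lower in mean FPKM (a fragment count scaled to the transcript's length and the library's total), and in both genes all 3 C13 libraries lay below all 3 vehicle libraries. C1q chain RNA was the most abundant of the group, at 580 to 956 FPKM per chain, and its groups overlapped. C4b, C3ar1, C5ar1 and Serping1 differed between the group means by less than 5%, with groups that overlapped. None of the 9 passed the test over the 11412 genes that averaged 1 FPKM or more (limma on log2(FPKM + 1), Benjamini-Hochberg adjusted p under 0.05), where 0 genes were called in either direction (0.0% of those tested). At an unadjusted p under 0.05 were 1 of the 9, Cfb, on the lower side and 0 on the higher, beside 4.77% and 2.57% of all genes. Over 16 alternative settings, Cfb was called lower only when vehicle replicate 2 was left out (limma adjusted p = 0.0436). That library stood apart from the others and held the highest Cfb value. Without that library 1 of the 9 genes was called lower and 0 higher, against 1.07% and 0.412% of all genes.

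All 9 genes are annotated as protein-coding and lie on the minus strand of GRCm38, the assembly that UCSC names mm10. The chain genes C1qb (136880129 to 136886187), C1qc (136889804 to 136893065) and C1qa (136895917 to 136898803) follow each other on chromosome 4. C3 (57203970 to 57228136), C4b (34728380 to 34743882) and Cfb (34856374 to 34862518) are on chromosome 17. C3ar1 lies on chromosome 6 (122847138 to 122856161), C5ar1 on chromosome 7 (16246743 to 16259540) and Serping1 on chromosome 2 (84765387 to 84775444). The rows of C3 and Cfb share their locus with the microRNA genes Mir6978 and Mir6972, which stood at 0.01 FPKM, the lowest value there, in every library. GENCODE annotates a further protein-coding gene, Gm20547, across Cfb and its neighbour C2, so reads of these genes could be split. C4b has a near-identical copy, C4a, which had at most 0.0998 FPKM, and the split of reads between the copies is uncertain.

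Promoter sequences (250 bases before to 50 bases after the start, RefSeq, GRCm38.p6) were available for 5 of the 9 genes, C1qb, C1qc, C3, C3ar1 and C5ar1. Of these, 4 are shown because they belong to the chain genes with like profiles (C1qb, C1qc), to the gene with separate groups (C3) and to its receptor (C3ar1). They are the windows chr4:136886151-136886450, chr4:136892865-136893164, chr17:57228087-57228386 and chr6:122856108-122856407, printed along the minus strand with motif matches on either strand in capitals.
C1qb: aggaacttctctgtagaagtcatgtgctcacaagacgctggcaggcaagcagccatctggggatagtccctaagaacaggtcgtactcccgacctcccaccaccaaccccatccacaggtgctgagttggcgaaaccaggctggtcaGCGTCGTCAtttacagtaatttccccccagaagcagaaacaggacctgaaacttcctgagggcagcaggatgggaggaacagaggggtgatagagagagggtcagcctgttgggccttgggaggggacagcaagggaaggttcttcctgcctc
C1qc: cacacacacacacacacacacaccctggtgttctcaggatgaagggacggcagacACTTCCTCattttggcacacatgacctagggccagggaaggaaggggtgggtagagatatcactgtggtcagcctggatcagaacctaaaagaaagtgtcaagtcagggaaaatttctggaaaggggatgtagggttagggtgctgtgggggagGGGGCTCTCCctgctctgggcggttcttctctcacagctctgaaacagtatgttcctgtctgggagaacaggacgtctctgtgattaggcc
C3: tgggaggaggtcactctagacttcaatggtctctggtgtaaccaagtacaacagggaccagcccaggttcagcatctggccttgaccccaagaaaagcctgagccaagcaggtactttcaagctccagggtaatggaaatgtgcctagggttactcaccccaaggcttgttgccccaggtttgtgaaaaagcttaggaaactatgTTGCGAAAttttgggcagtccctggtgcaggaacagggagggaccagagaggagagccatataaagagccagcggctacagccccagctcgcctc
C3ar1: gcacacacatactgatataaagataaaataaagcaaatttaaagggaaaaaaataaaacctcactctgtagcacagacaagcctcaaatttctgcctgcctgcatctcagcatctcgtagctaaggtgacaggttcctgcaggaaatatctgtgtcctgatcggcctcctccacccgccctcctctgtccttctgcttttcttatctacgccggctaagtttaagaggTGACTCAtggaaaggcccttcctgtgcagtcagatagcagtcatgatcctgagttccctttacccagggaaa
The motifs searched were the interferon-stimulated response element, the gamma-activated site TTCNNNGAA, AP-1 TGANTCA, the NF-kappaB consensus, C/EBP TTGCNNAA, the PU.1 core GAGGAAGT and the antioxidant response element TGACNNNGC. They occurred in 3.44%, 8.3%, 7.81%, 8.46%, 10.8%, 3.2% and 12.4% of the 32851 promoters of the table, in that order. The C3 window held a C/EBP match at 45 to 38 bases before the start. In the C3ar1 window an AP-1 match stood at 22 to 16 bases before the start. C1qc had a PU.1 core on the opposite strand at 195 to 188 bases and an NF-kappaB match at 41 to 32 bases before the RefSeq start. GENCODE begins C1qc further upstream, at 136893065, so the NF-kappaB match lies within that gene span. For C5ar1 GENCODE also begins the gene further upstream, at 16259540, inside the window searched. C1qb had an antioxidant response element match on the opposite strand at 103 to 95 bases before the start, and C5ar1 had no match. These matches describe letters in the windows and not binding.

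Depth and cell content bear on all of these values. The table held no read totals, and the smallest steps between low values put the depth at 8900000 to 11550000 fragments per library. At that depth 405 to 623 fragments lay behind the C4b values and 990 or more behind each value of the other 8 genes, by the longest annotated transcript. Across genes the median correlation with the other libraries was 0.969 for vehicle replicate 2, against 0.984 to 0.989 for the rest. All 14 microglial markers averaged 1 FPKM or more, yet homeostatic ones were low, with 1.89 to 3.21 FPKM for Cx3cr1, 1.3 to 3.18 FPKM for P2ry12 and 1.25 to 1.66 FPKM for Sall1. Fibroblast and mural markers were high, led by Col1a1 at 1773 to 2137 FPKM, and their summed level was 5295 to 5991 FPKM under vehicle and 5029 to 5430 FPKM under C13. The summed level of the 14 microglial markers was 1007 to 1205 FPKM under vehicle and 912.3 to 1037 FPKM under C13. The 10 astrocyte markers summed to 52.5 to 65.3 FPKM under vehicle and 70.1 to 136.5 FPKM under C13. Lymphocyte markers were at or near the lowest value, with 3 of 4 listed at 0.01 FPKM in every library. In bulk RNA, fewer cells of a type and less RNA per cell cannot be told apart, and the table does not say which cells of a culture a transcript came from. The labels call the libraries biological replicates but name no culture or litter behind them. The p-values rest on the spread among these samples alone, and how much of it is technical is not known.

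**Figure D1:**
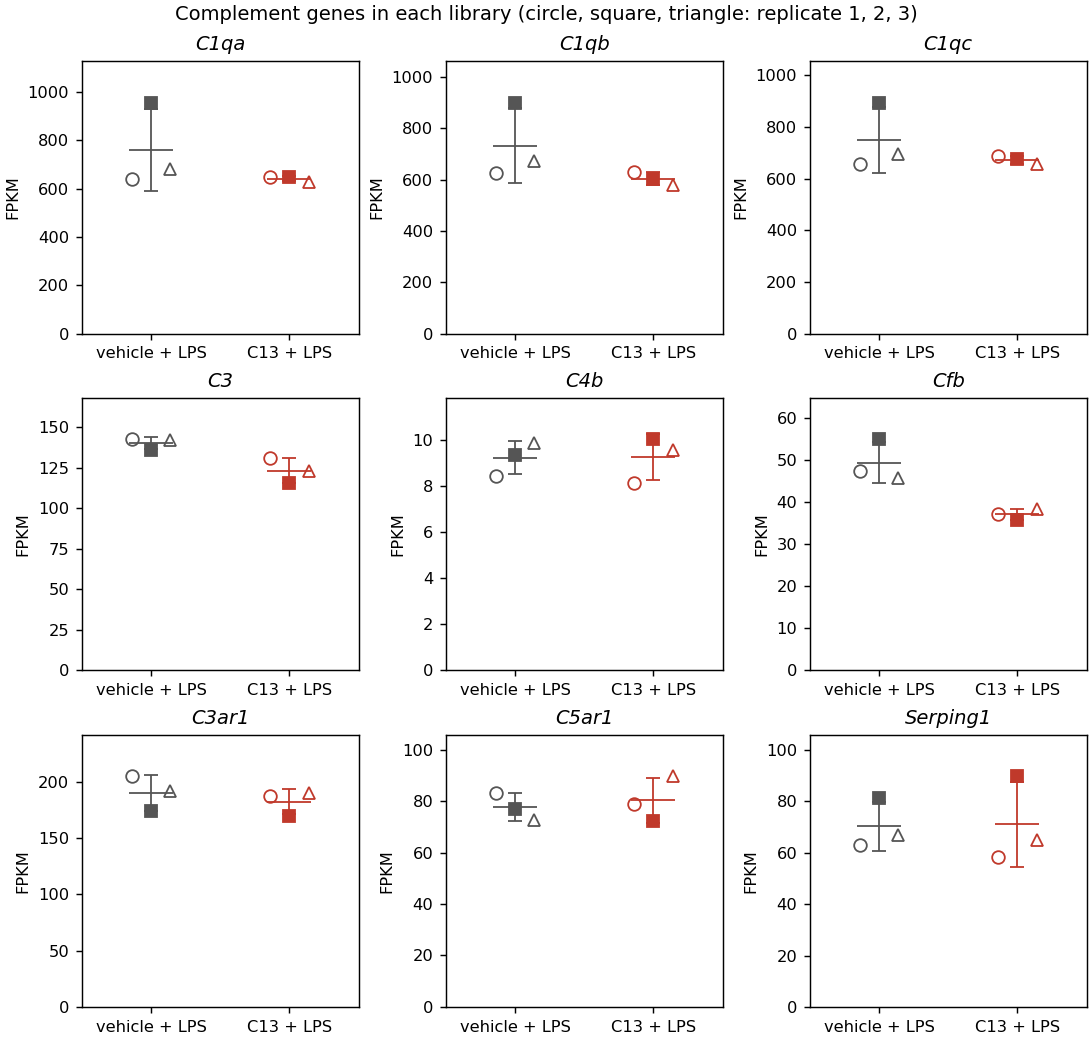
FPKM of the 9 complement genes in each library, with the group mean and SD (bars, n = 3) and a symbol for each replicate number. In Cfb and C3 every C13 library lies below every vehicle library, while the 3 C1q chains are high in vehicle replicate 2 and alike in the other 5 libraries.

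C1q is built from the products of C1qa, C1qb and C1qc in equal numbers. C1qa had 641, 956 and 681 FPKM in vehicle replicates 1, 2 and 3 and 649, 649 and 627 FPKM in C13 replicates 1, 2 and 3. C1qb had 625, 900 and 672 FPKM under vehicle and 630, 603 and 580 FPKM under C13. C1qc had 658, 895 and 695 FPKM under vehicle and 687, 675 and 658 FPKM under C13. In each chain gene vehicle replicate 2 was far above the other 5 libraries, and without it the groups lay close together. The change in log2(FPKM + 1) was -0.22 for C1qa (95% interval -0.59 to 0.15, limma adjusted p = 0.821), -0.26 for C1qb (-0.61 to 0.09, adjusted p = 0.792) and -0.14 for C1qc (-0.45 to 0.17, adjusted p = 0.824). Without vehicle replicate 2 it was -0.04 for C1qa, -0.10 for C1qb and -0.01 for C1qc (adjusted p = 0.698, 0.404 and 0.969), with intervals of -0.15 to 0.07, -0.23 to 0.03 and -0.11 to 0.10. C1qc lay at 0.03 after quantile normalization. The chain genes carried most of their difference between the means in 1 vehicle library.

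The chains were present in nearly equal shares of their summed FPKM. FPKM is scaled to length, but vehicle replicate 2 still differed by transcript length, which limits such comparisons between genes there. C1qa made up 33.8% ± 0.839 of the sum with vehicle and 33.4% ± 0.380 with C13 (SD, n = 3). C1qb made up 32.5%, 32.7% and 32.8% in vehicle replicates 1, 2 and 3 and 32.03%, 31.3% and 31.1% in C13 replicates 1, 2 and 3. For C1qc the shares were 34.2%, 32.5% and 33.9% with vehicle and 34.97%, 35.03% and 35.3% with C13. All 3 C13 libraries thus had a smaller C1qb share, by 1.20 percentage points on average, and a larger C1qc share, by 1.54 points. The exact two-sided permutation test gave p = 0.1 for both, the smallest it allows for 3 against 3, and an adjusted p of 0.225 over the 9 shares, sums and ratios compared.

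The high C1q values of vehicle replicate 2 stood beside a difference in transcript length. C1qa, C1qb and C1qc have longest annotated transcripts of 1040, 1088 and 1203 nt, and in vehicle replicate 2 they were 0.53, 0.47 and 0.40 above the mean of vehicle replicates 1 and 3 in log2(FPKM + 1). Over the 1311 tested genes with transcripts under 1.5 kb the same difference had a median of 0.45, and over the 2431 genes of 5 kb or more it was -0.41. Of the 14 microglial markers 6 were also highest in vehicle replicate 2, among them Trem2 and Cd68, at 219 and 502 FPKM. Itgam, Cx3cr1 and Sall1 were lowest in that library, at 42.9, 1.89 and 1.25 FPKM. Set against Trem2, the summed C1q chains had ratios of 12.7, 12.6 and 12.5 in vehicle replicates 1, 2 and 3, and of 11.9, 13.7 and 13.1 in C13 replicates 1, 2 and 3. Vehicle replicate 2 lay between the other vehicle libraries in that ratio. Set against Cd68 the ratios were 4.99, 5.48 and 5.16 with vehicle, highest in replicate 2, and 5.01, 5.52 and 5.36 with C13. Both ratios were chosen after the values were seen. After removal of a length trend within each library the change of C1qa, C1qb and C1qc was -0.10, -0.15 and -0.03 (adjusted p = 0.602, 0.43 and 0.85).

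**Figure D2:**
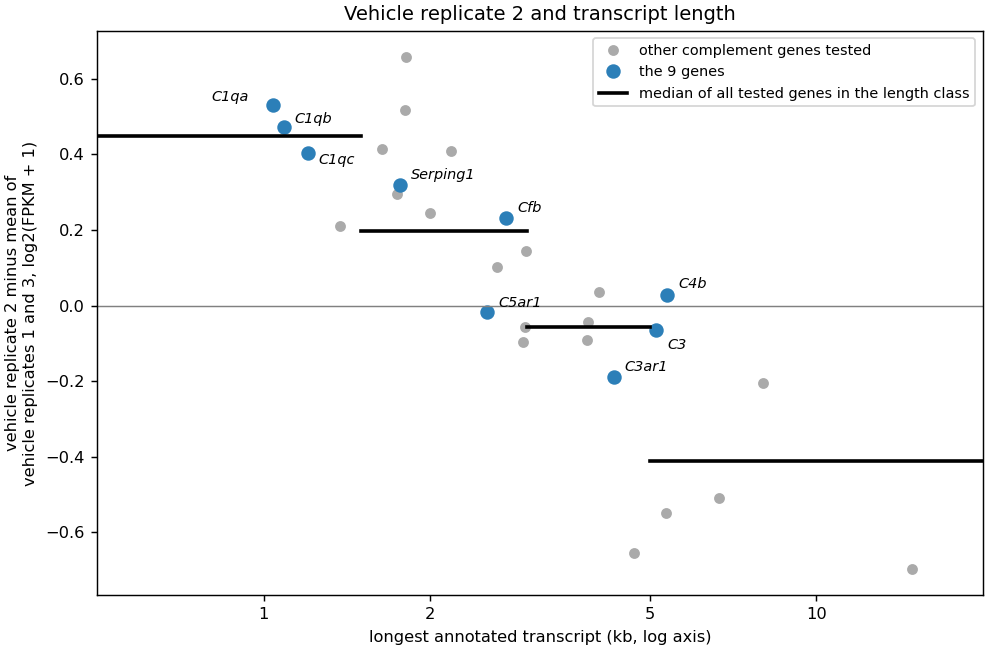
Difference of vehicle replicate 2 from the mean of the other vehicle libraries in log2(FPKM + 1), against the length of the longest annotated transcript (kb, log axis). Blue points are the 9 genes, grey points the 19 other complement genes tested and black lines the medians of all tested genes by length class, which run from 0.45 for the shortest to -0.41 for the longest. The 3 C1q chains sit near the line of the shortest class.

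Among the components, Cfb encodes factor B, the serine protease of the alternative pathway. It had 47.4, 55.02 and 45.9 FPKM in vehicle replicates 1, 2 and 3. With C13 it had 37.2, 35.8 and 38.4 FPKM in replicates 1, 2 and 3. The lowest vehicle library lay above the highest C13 library, and the group means were 49.5 ± 4.88 and 37.1 ± 1.30 FPKM (SD, n = 3). The change was -0.40 (SE 0.0938, 95% interval -0.62 to -0.18, unadjusted limma p = 0.00343, adjusted p = 0.377), and the exact permutation test gave p = 0.1, the smallest it allows. Without vehicle replicate 2, the highest of all, it was -0.32 (95% interval -0.45 to -0.20, adjusted p = 0.0436). Over the 16 alternatives the change stayed between -0.45 and -0.27 and the adjusted p between 0.0436 and 0.992, and only leaving out vehicle replicate 2 took it under the threshold.

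C3, the component at which the pathways meet, had 143, 136 and 142 FPKM in vehicle replicates 1, 2 and 3. In C13 replicates 1, 2 and 3 it had 131, 116 and 123 FPKM. Every C13 library lay below every vehicle library, with means of 140 ± 3.69 and 123 ± 7.63 FPKM. The change was -0.19 (SE 0.0821, 95% interval -0.38 to 0.01, limma adjusted p = 0.693), and p = 0.1 in the exact permutation test. Its size depended on how libraries were scaled, with -0.07 after quantile normalization and -0.05 with FPKM rescaled to TPM, which moved the median of all genes by 0.13, so that C3 lay -0.18 from that median. Cfb and C3 were the 2 of 9 genes whose groups did not overlap, both lower with C13, as in 9.78% of all tested genes, and 0 of 9 were apart on the higher side, as in 6.83%.

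C4b encodes complement component C4, which C1s cleaves. It had 8.45, 9.34 and 9.87 FPKM under vehicle and 8.12, 10.02 and 9.58 FPKM under C13 in replicates 1, 2 and 3. The groups covered the same range, with a change of 0.0005 (95% interval -0.26 to 0.26, limma adjusted p = 1). That interval, from 0.835 to 1.20 times the vehicle level on the scale of FPKM + 1, is the range of differences these libraries leave.

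C2, the factor B relative that joins C4b in the classical pathway, is the neighbour of Cfb on chromosome 17. It had 39.6, 43.7 and 41.8 FPKM under vehicle and 36.6, 37.1 and 36.95 FPKM under C13. Its groups did not overlap either, with a change of -0.17 (limma adjusted p = 0.697). The ratio of Cfb to C2 FPKM, chosen after the values were seen, was 1.20, 1.26 and 1.10 with vehicle and 1.02, 0.965 and 1.04 with C13. Cfb was thus lower relative to C2 in all 3 C13 libraries, with p = 0.1 in the exact permutation test and an adjusted p of 0.225. The ratio of Cfb to C3 FPKM was 0.333, 0.405 and 0.323 with vehicle and 0.284, 0.310 and 0.313 with C13, again with groups apart and the same adjusted p.

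**Figure D3:**
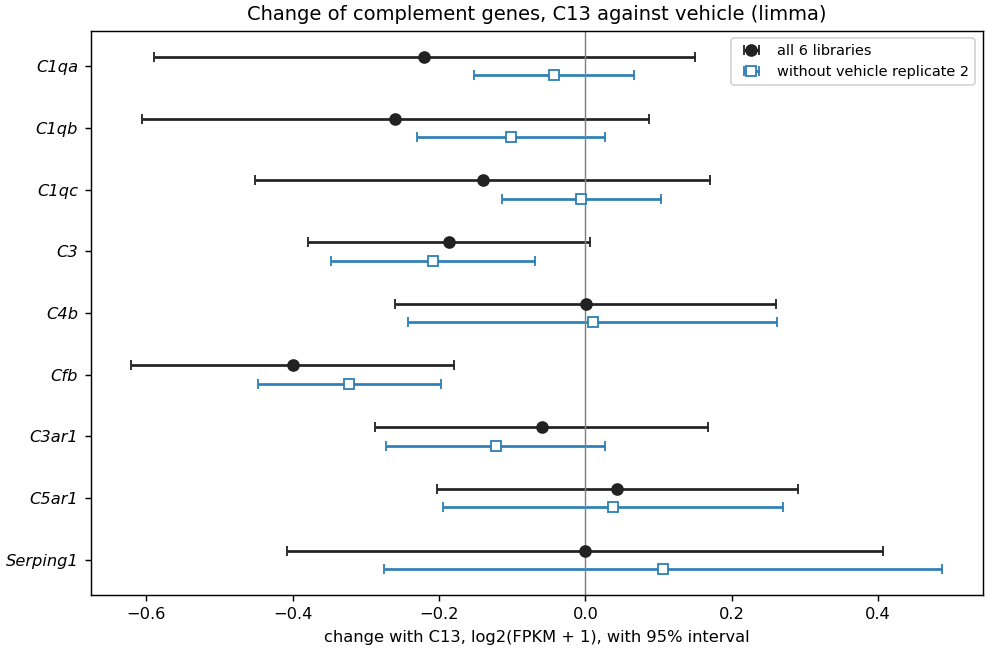
Change with C13 in log2(FPKM + 1) for the 9 genes with the 95% interval of limma, with all 6 libraries (black) and without vehicle replicate 2 (blue). The interval of Cfb lies below 0 in both, that of C3 only without vehicle replicate 2, and those of the other 7 genes span 0 in both.

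The receptors were at moderate levels. C3ar1, the receptor for C3a, had 205, 174 and 191 FPKM in vehicle replicates 1, 2 and 3 and 187, 169 and 190 FPKM in C13 replicates 1, 2 and 3. Its groups overlapped, with a change of -0.06 (95% interval -0.29 to 0.17, limma adjusted p = 0.874), and of 0.08 after quantile normalization or rescaling to TPM. C5ar1, the receptor for C5a, had 83.3, 76.9 and 72.7 FPKM under vehicle and 78.8, 72.2 and 89.7 FPKM under C13. The highest and the lowest value were both C13 libraries, with a change of 0.04 (95% interval -0.20 to 0.29, adjusted p = 0.916). C3ar1 was 2.26 to 2.63 times as high as C5ar1 in FPKM with vehicle and 2.12 to 2.38 times with C13 (exact permutation p = 0.3, adjusted p = 0.45). The second C5a receptor gene, C5ar2, stayed at 0.0763 to 0.254 FPKM, below the limit for testing.

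Serping1, the gene of C1 inhibitor, had 62.9, 81.2 and 66.8 FPKM in vehicle replicates 1, 2 and 3. With C13 it had 58.5, 89.8 and 64.8 FPKM in replicates 1, 2 and 3. The replicates numbered 2 were highest in both groups, and the group means were 70.3 ± 9.62 and 71.0 ± 16.6 FPKM. The change was -0.0005 (95% interval -0.41 to 0.41, limma adjusted p = 1), the widest interval of the 9 genes. Its direction flipped with the setting, with 0.11 without vehicle replicate 2 and -0.18 without C13 replicate 2.

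C13 replicate 2 held 1.46 times as much Serping1 in FPKM as the mean of C13 replicates 1 and 3. Among the genes of the proteases that C1 inhibitor blocks, C1ra and C1s1 were also highest there. C1ra had 10.02, 15.4 and 13.5 FPKM and C1s1 had 6.98, 11.8 and 8.50 FPKM in C13 replicates 1, 2 and 3. Masp1, of the same pathway list, was lowest there among the C13 libraries, at 6.25, 5.51 and 5.71 FPKM. In the same library 10 of 10 astrocyte markers and 5 of 8 fibroblast and mural markers were above both other C13 libraries. Gfap had 5.80, 35.6 and 8.79 FPKM in C13 replicates 1, 2 and 3 and 2.74 to 5.18 FPKM with vehicle, and Dcn had 80.02, 165 and 104 FPKM in the C13 libraries. Of the same list as Dcn, Acta2 and Pdgfrb were lowest in C13 replicate 2, at 1125 and 55.0 FPKM. The C1q chains did not follow, at 1.02, 0.998 and 1.004 times the mean of the other C13 libraries for C1qa, C1qb and C1qc. The part of other cells in the values of Serping1, C1ra and C1s1 was not tested. C1ra and C1s1 were singled out after their values were seen.

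**Figure D4:**
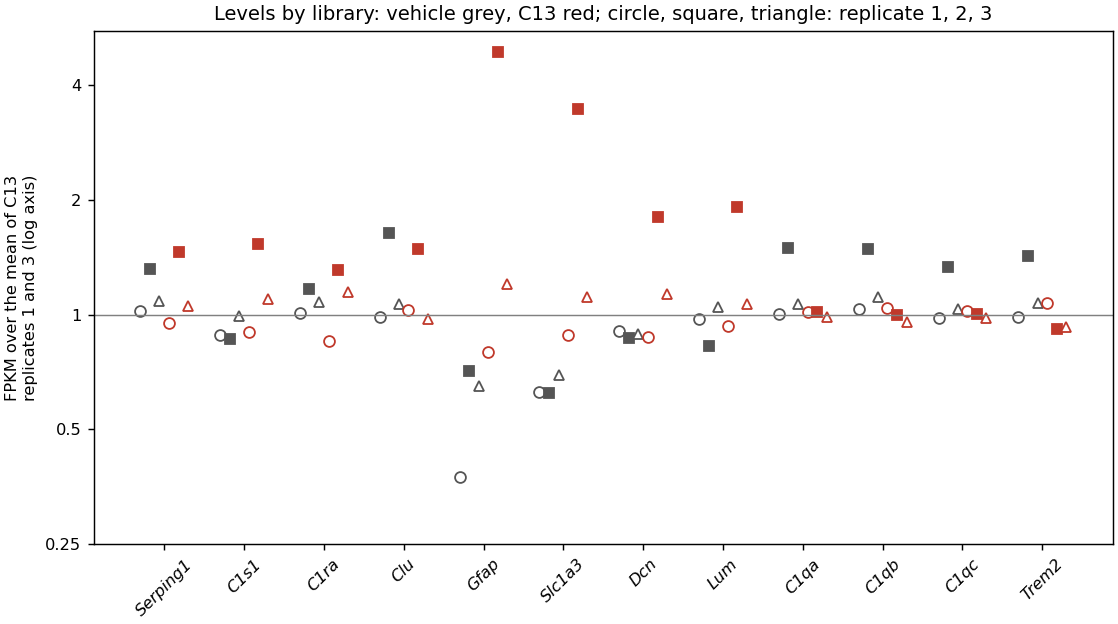
FPKM in each library over the mean of C13 replicates 1 and 3 (log axis) for Serping1, 3 other complement genes, 4 markers of astrocytes and fibroblasts, the C1q chains and Trem2. The filled red squares of C13 replicate 2 lie above 1 for the first 8 genes and near 1 for the C1q chains. The genes shown are a selection made by hand and not by a rule. Acta2 and Pdgfrb, which were lowest in C13 replicate 2, are not shown. Clu was higher still in vehicle replicate 2, at 39.5 FPKM against 35.8 FPKM in C13 replicate 2.

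Levels of the 9 genes, compared per length in FPKM, were ordered by their means, with vehicle replicate 2 and its difference by transcript length included. Over 6 libraries they were 711 FPKM for C1qc, 700.5 for C1qa and 668 for C1qb, with ranges that overlapped. Next came C3ar1 at 186 FPKM and C3 at 132 FPKM, each with a range apart from its neighbours. C5ar1 at 79.0 FPKM and Serping1 at 70.7 FPKM overlapped, followed by Cfb at 43.3 and C4b at 9.23 FPKM.

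Among themselves the chain genes had the most alike profiles over the 6 libraries. The root mean square difference of their centred log2(FPKM + 1) profiles was 0.036 for C1qa and C1qb, 0.0588 for C1qa and C1qc, and 0.0663 for C1qb and C1qc. The next pairs were C3 with C3ar1 at 0.0865 and C3ar1 with C5ar1 at 0.0967. By the same measure over the 5811 genes averaging 10 FPKM or more, the genes nearest to C1qa were Rpl34-ps1 (0.0182) and Rpl5 (0.0191). Those nearest to C1qb were Eri3 (0.0227) and Usf1 (0.0256), and those nearest to C1qc were Psma6 (0.0105) and Efemp2 (0.0139). C3 lay nearest to Parp9 (0.0141) and Pdk3 (0.0224). Cfb lay nearest to Ccm2 (0.0451) and Myc (0.0487), at differences well under the 0.217 by which its own profile varied. For C4b they were Cdr2l and Aqp1, for C3ar1 Coro2a and Extl3, for C5ar1 Top3b and Srpk1, and for Serping1 Cx3cl1 and Htra1, at 0.0234 to 0.0773. Transcripts of like length share the deviation of vehicle replicate 2, so these distances also hold a part that is common to many genes.

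The other genes of the pathway were taken from a list of 49, of which 19 reached 1 FPKM on average and were tested. Of these 19, 11 lay above 0 and 8 below 0 with a median change of 0.01, and 0 were called in either direction, beside 50.1% below 0 and a median of -0.0003 over all tested genes. For the 9 genes the corresponding values were 7 below 0 and a median of -0.14, which was -0.04 without vehicle replicate 2. Of the 19 tested genes 2, C2 and Calr, had groups that did not overlap, both lower with C13, beside 9.78% of all tested genes on that side, so their number says nothing particular about the list. Of the 30 untested genes 4 also had groups that did not overlap, C4a, C5ar2 and Colec11 lower with C13 and Cd59b higher, all under 1 FPKM in every library. The share among all untested genes was not computed. Among tested genes 16.6% had groups apart in either direction, so nothing is read from this number. The collectin gene Colec11 had 0.171, 0.140 and 0.212 FPKM under vehicle and 0.01, 0.01 and 0.136 FPKM under C13. Cd59b, a gene of the CD59 inhibitor of the membrane attack complex, had 0.165, 0.134 and 0.01 FPKM under vehicle and 0.260, 0.758 and 0.260 FPKM under C13, and the split of reads with its close copy Cd59a is uncertain.

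In the classical and lectin pathway 6 of 16 genes were tested, among them C2, C1ra, C1s1, Masp1, Fcna and Colec12. The scavenger receptor collectin gene Colec12 had 57.5 ± 4.68 FPKM under vehicle and 57.6 ± 1.79 FPKM under C13. Mbl1 and Fcnb were listed at 0.01 FPKM in every library. Cfp encodes properdin, which stabilises the alternative pathway enzyme, and was abundant at 150 ± 26.3 and 151 ± 11.9 FPKM. Of the terminal pathway, which builds the membrane attack complex, 0 of 7 genes were tested, and the highest single value was 0.853 FPKM, for C8g.

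The regulators counted 5 tested genes of 14. Cr1l, the rodent inhibitor of C3 activation on cell membranes known as Crry, had 36.5 ± 1.13 FPKM under vehicle and 38.0 ± 1.05 FPKM under C13. Of the receptors and binding proteins 7 of 10 were tested. Itgam and Itgb2 encode the 2 chains of complement receptor 3. Itgam had 69.3, 42.9 and 66.9 FPKM under vehicle and 73.2, 68.4 and 80.1 FPKM under C13, low in vehicle replicate 2 and otherwise overlapping (change 0.33, limma adjusted p = 0.781, and 0.11 without vehicle replicate 2). Itgb2 had 80.2 ± 2.12 and 86.8 ± 7.94 FPKM. Calr, whose product calreticulin binds C1q, had 909, 1212 and 915 FPKM under vehicle and 887, 866 and 861 FPKM under C13 (change -0.20, adjusted p = 0.816), and -0.07 without vehicle replicate 2. The C1q-binding protein gene C1qbp had 74.6 ± 8.33 and 69.4 ± 3.07 FPKM, and the endocytic receptor gene Lrp1 had 36.95 ± 9.73 and 42.03 ± 4.83 FPKM. Lrp1 was lowest in vehicle replicate 2, at 25.8 FPKM, and its change was 0.21 with that library and -0.02 without it. The change of C1qbp was -0.10 with it and -0.02 without it.

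**Figure D5:**
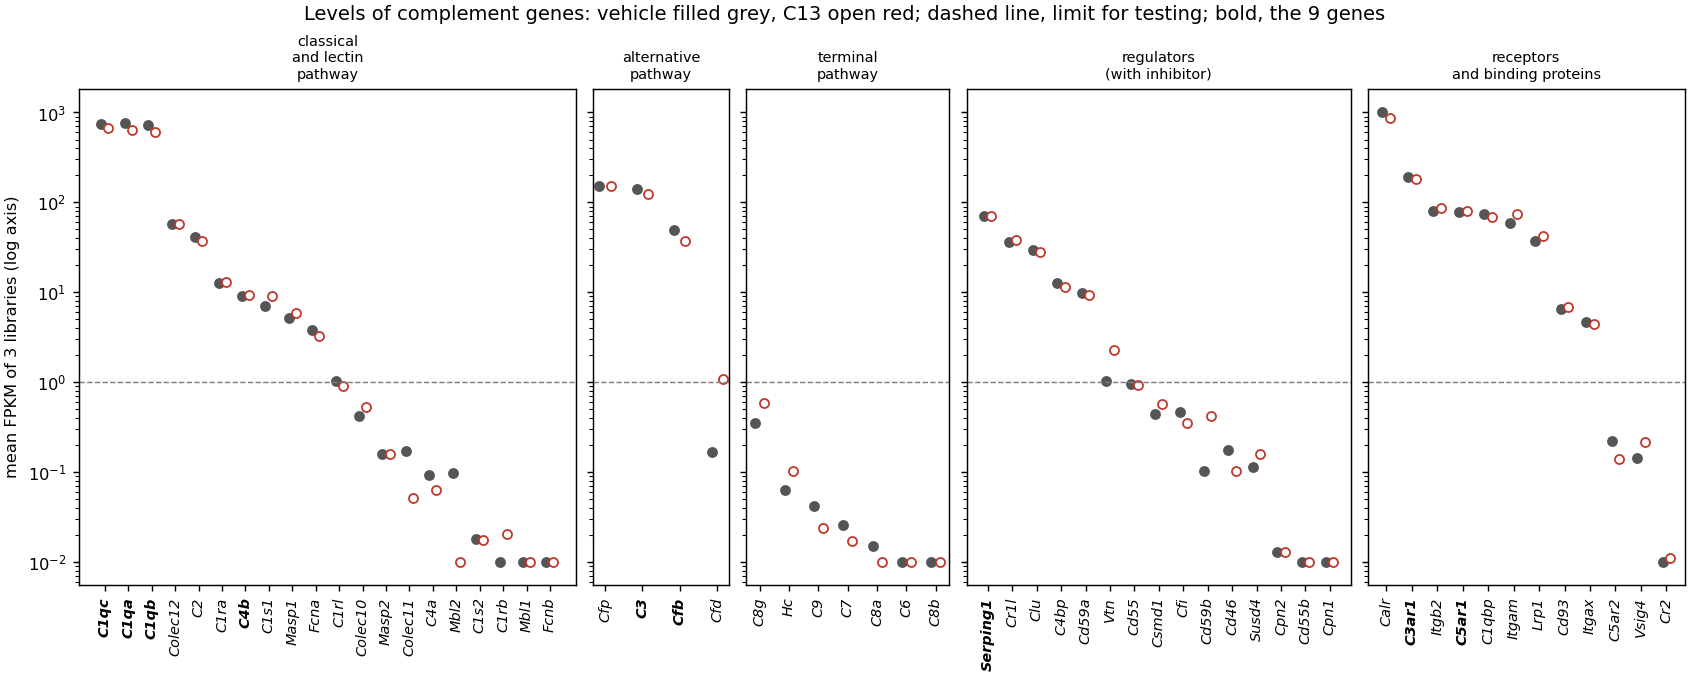
Mean FPKM (log axis) of the 9 genes (bold) and the 49 other complement genes with vehicle (filled grey) and C13 (open red), n = 3 each, ordered by level within each role. The dashed line marks 1 FPKM, and genes of the terminal pathway all lie below it.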

How the data were processed

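RNA of 6 libraries was captured as poly-A RNA and made into libraries with a stranded mRNA kit, per the labels' protocols. The authors used TopHat2 2.1.0, Cufflinks and the build mm10, per the submitters' processing notes. No annotation or strand setting is given in the sources used here. Deposited were FPKM values, 1 per gene and library, and sample descriptions tied columns to samples. Of its lines 1 was empty and was left out. FPKM divides by transcript length and library total. Why vehicle replicate 2 differed by transcript length was not tested.

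From these values log2(FPKM + 1) was computed, genes averaging 1 FPKM or more were kept, and C13 was compared with vehicle by limma 3.58.1 in R 4.3.3 (intensity trend, two-sided), with Benjamini-Hochberg adjustment over 11412 genes and a threshold of 0.05. The fit was tested on simulated data in which each gene varied independently. That simulation held no deviation by transcript length, and its planted changes were larger than any change of the 9 genes. It therefore does not show how the fit performs in that setting. Exact permutation tests were two-sided. Depth was estimated from the first step above the lowest value in single-transcript genes of at least 1500 nt. Cufflinks divides fragments among transcripts, so no count test was run. Gene positions and lengths are those of GENCODE M21. The members and lists were chosen with earlier results of these data known. The text names all 9 members, the listed pathway genes with an unadjusted p under 0.05 or groups that do not overlap, tested or not, and the 6 most abundant others, and the 2 nearest profiles of each member; 1 gene of the pathway list is not reported here. Alternatives covered pseudocounts, filters, scalings, the trend, weights, a replicate block and leaving out each library; removal of a length trend was added after seeing the data.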

Additional observations from a re-analysis of the deposited data

How the results depend on the processing

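Cfb, C3, C1qa and C1qb stayed below 0 in all 16 alternatives, and the other 5 genes crossed 0 in at least 1. Leaving out 1 library at a time gave -0.33 to -0.04 for C1qa, -0.36 to -0.10 for C1qb, -0.23 to -0.01 for C1qc, -0.23 to -0.14 for C3, -0.45 to -0.32 for Cfb, -0.12 to -0.004 for C3ar1, -0.039 to 0.12 for C5ar1, -0.055 to 0.082 for C4b and -0.18 to 0.13 for Serping1. Only leaving out vehicle replicate 2 gave a call among the 9 genes, for Cfb (-0.32). Over all genes, leaving out 1 library gave 0 to 47 genes called higher and 0 to 122 lower, the highest counts without vehicle replicate 2. Quantile normalization called 7 higher, TPM 2, no intensity trend 1, array weights 18 higher and 24 lower, and removal of the length trend 7 higher and 6 lower, none among the 9 genes. Quantile normalization gave C1qc 0.026, C4b -0.027, C3ar1 0.085 and Serping1 0.11. TPM moved the median of all genes by 0.13 and gave C3ar1 0.075 and Serping1 0.13, or -0.05 and 0.01 relative to that shift, and Cfb -0.40 relative to it. Serping1 was 0.0003 with a pseudocount of 5, 0.081 with array weights and 0.077 without the length trend, where C4b was -0.064. The arrayWeights iteration stopped before its tolerance was reached. Of the other complement genes, no filter gave 21 above and 22 below 0 among 43, and TPM gave 4 of the 19 tested below 0; the median of these 19 was 0.14 with TPM and -0.052 to 0.050 with a library left out. The cause of these shifts was not tested. Replicate numbers, which are those of the sample titles, did not pair the libraries by the rule used. Deviations from the group means of same-numbered libraries correlated by 0.089, 0.129 and 0.098. Each library correlated best with its own number, a hint from the data and not from the design. The deposited column names number the libraries otherwise. The fit with a replicate block called 0 genes and left the change of Cfb at -0.40 (adjusted p = 0.615). Depth limits C4b most, with 405 to 623 fragments per library.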
